A study of Saccharomyces cerevisiae with 72 samples.

Results

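The distal right arm of chromosome XII of budding yeast was followed through S phase as the ratio of replicating to G1 DNA in 1-kb bins. Its members were all bins from position 580001 to the last listed bin, which ended at 1060000. Of these bins, 456 were listed in every library, 4.04% of the 11277 such bins in the genome. The arm and a stretch on it from 871001 to 905000 (34 bins) were chosen by the replication times measured here (the stretch by a delay of strain D against A over 20 minutes), so those times are given as a description with no test. Within the arm, the intervals 593001 to 599000, 651001 to 657000, 941001 to 947000 and 976001 to 982000 held no usable bin, and nothing beyond 1060000 was listed. The arm lies on the telomere side of the ribosomal DNA array.

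Replication of a yeast chromosome starts at many origins, each of which fires at a typical time, and forks then move outward until they meet. An early origin therefore appears as a peak of DNA content early in S phase, and the place where forks meet appears as a valley. Sld3 brings Cdc45 to the Mcm helicase at licensed origins, a step that protein kinases promote and that phosphatases such as PP2A and PP4 can oppose or reset.

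Cells were W303 yeast of mating type a in 4 strains, all of which carried swe1delta::TRP1, cse4delta::NatMX with leu2::CSE4-HA6::LEU2, CDC55-AID::KanMx and his3::PGPD1-osTir1::HIS3. Strain A had PPH3 and SLD3-13myc. Strain B had PPH3 and sld3-R(2A)-13myc, an allele whose changed residues the labels do not state. Strain C had PPH3-AID::HphMx and SLD3-13myc, and strain D had PPH3-AID::HphMx and sld3-R(2A)-13myc. Pph3 is the catalytic subunit of PP4, Cdc55 is a regulatory subunit of PP2A, and the AID tag lets auxin (IAA) and osTir1 degrade a protein. Arrest was with alpha factor, IAA and a shift to 37 °C came before release, and IAA stayed in the medium after it. The tables hold no measure of protein level, so depletion was not checked here. Since Cdc55 carried the degron in all strains, A is not a wild type, and the set holds no strain with an untagged Cdc55. Libraries were made at 15, 20, 25, 30, 35, 40, 45, 50, 60, 70 and 80 minutes after release, 1 for each strain and minute, 44 in all.

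No difference between strains below has a replicate culture behind it, and no test between strains was possible. The authors' ratio is scaled so that a value near 1 stands for unreplicated and a value near 2 for replicated DNA. Read counts are not listed, so depth is unknown. The noise of single bins, taken from adjacent bins after dividing each ratio by the median of its library, ran from 0.0425 to 0.0688 over the 44 libraries. The replication time, Trep, is the minute at which the 5-kb running mean of the ratio reached 1.5. On the arm its noise, from bins of odd and even number, was 0.88 min for A, 0.68 for B, 0.80 for C and 1.28 for D, which leaves out any difference between cultures. All 11 ratios of a strain share 1 G1 denominator. For differences of Trep this noise came to 1.09 min for B minus A, 1.21 for C minus A and 1.38 for D minus A.

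Over the arm, strain A replicated first, then C, then B, and D last. The median Trep of the 456 bins was 35.0 min in A (SD over bins 5.7, from 23.6 to 48.4). It was 37.4 in C (SD 7.0, from 27.0 to 54.1) and 41.1 in B (SD 5.9, from 26.9 to 53.8). In D it was 46.2 min (SD 9.0, from 31.8 to 65.1). The genome medians stood at 32.8 min for A, 36.3 for C, 39.3 for B and 44.1 for D, so the arm was later than the genome median in each strain. The delay of B against A had a median of 6.34 min on the arm and 6.41 over the genome. That of C against A was 3.87 min on the arm and 3.53 over the genome. The delay of D against A was 13.41 min on the arm (quartiles 9.38 and 17.46) and 11.09 over the genome.

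**Figure D1:**
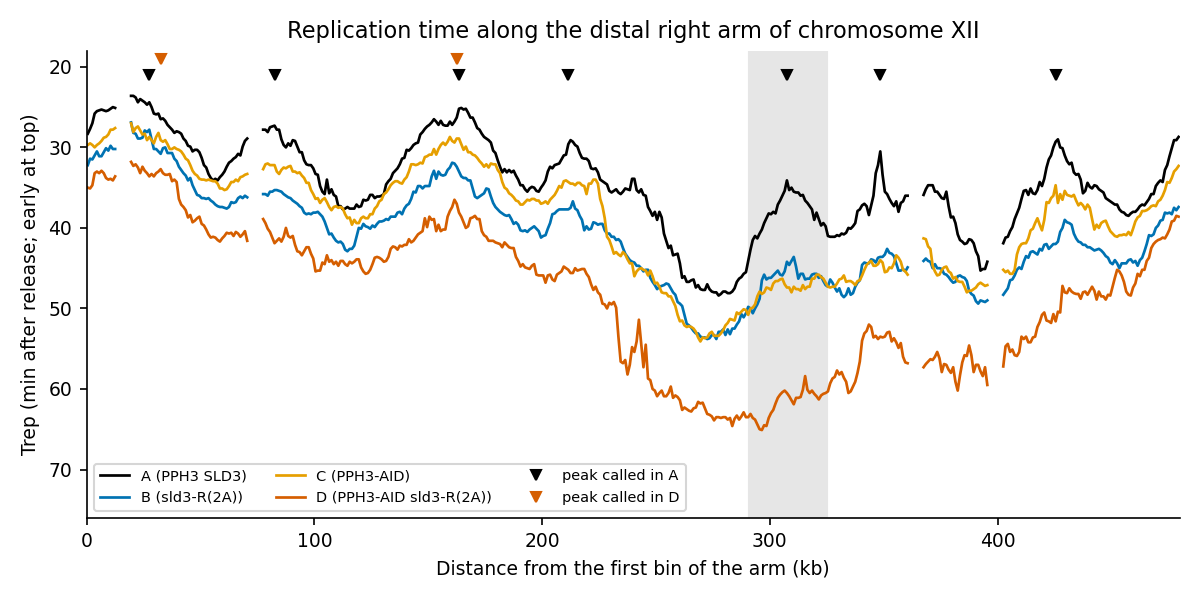
Replication time (Trep, minutes after release, early at the top) of each 1-kb bin against distance in kb from the first bin of the arm, 1 line for each strain. Gaps in the lines are bins not listed, the grey band is the 34-bin stretch and triangles mark the peaks called in A (7) and D (2). All 4 strains are early at the left, and in the grey band the D line runs from 58.4 to 65.1 min.

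The first peak of the arm, and the earliest, lay at 607001 in A, over BNA5 (kynureninase) and EST1 (a telomerase subunit). Its Trep was 24.4 min for A, 27.8 for B, 28.7 for C and 33.6 for D. The earliest bin in A was nearby at 599001, with 23.6 min for A, 26.9 for B, 27.0 for C and 31.8 for D. At 30 minutes the ratio of that bin was 1.99 for A, 1.55 for B, 1.70 for C and 1.45 for D, so A was close to fully replicated there before the other strains had passed 1.75. Over the first 50 kb of the arm, 580001 to 630000, the delay of D against A was 8.2 min, less than the genome median.

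The next early peak of comparable timing lay at 743001, within STT4, a phosphatidylinositol 4-kinase. Trep there was 25.2 min for A, 33.0 for B, 28.9 for C and 38.1 for D. At the bin beside it, over UBC12 (the conjugating enzyme of the ubiquitin-like protein Rub1), the ratio at 30 minutes was 1.78 for A, 1.41 for B, 1.52 for C and 1.28 for D. At 40 minutes it was 2.07 for A, 1.87 for B, 1.95 for C and 1.55 for D. A peak was called near both positions in all 4 strains, at 599001 and 739001 in C, at 607001 and 732001 in B, and at 612001 and 742001 in D. By the 5-kb rule for a shared position, the B peak at 732001 and the C peak at 599001 were not shared with A.

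Between and beyond these lay 5 more peaks of A. They stood at 662001 within GSY2 (glycogen synthase), at 791001 by JIP3 and MID2 (MID2 being a sensor of cell wall stress) and at 887001 within SMC6. The remaining ones were at 928001 within SEI1 (seipin, of lipid droplets) and at 1005001 within CNA1 (a calcineurin catalytic subunit). Valleys of A lay between them, at 635001 (RCK2), 696001 (DBP9), 778001 (CWC24), 841001 (RSC2), 908001 (CST9) and 972001 (ATG17), with a last one at 1037001 (LEU3). In distance along the arm, the spacing of the A peaks was 41 to 96 kb. B had 4 peaks in all, and the largest spacing between them was 216 kb, from 793001 to 1009001. C had 3, with 266 kb between 739001 and 1005001. D had 2, and from 742001 to the last listed bin, 317 kb, no peak was called in D. Peaks of D were called in its 45-minute library alone, where its ratio at 928001 was 1.36, so peaks that rose later were not looked for. At 60 minutes the ratio of D was 1.71 at 928001, above 1.53 at 907001 and 1.54 at 972001. At 887001 it was 1.48, below that at 907001, and at 1005001 it was 1.73, below 1.75 at 1037001. Over the genome the same rule called 111 peaks for A, 80 for B, 93 for C and 56 for D. These counts depend on the prominence required: at 5 times the bin noise in place of 3 they fell to 3 in A, 2 in B and C and 1 in D.

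How far each A peak led its flanks was then read in all strains at the same positions. The positions were picked in the 35-minute library of A, so the values of A are raised by that choice, and a shifted peak in another strain would be understated. The lead is the Trep of the earlier flanking valley less that of the peak. In A it ran from 5.8 to 10.5 min (median 9.2), in B from 1.5 to 9.0 (median 3.2), in C from -0.1 to 7.8 (median 2.8) and in D from -3.3 to 7.5 (median 0.7). The noise of a lead was 1.0 to 1.8 min depending on the strain. At 607001 the lead was 9.7 min for A, 9.0 for B, 5.5 for C and 7.5 for D. This peak had a valley of A on the arm only on its right, at 635001, so its lead is read on that side alone. At 743001 it was 10.3 for A, 7.4 for B, 7.8 for C and 6.3 for D. At these early positions the lead of every strain was more than 3 times its noise.

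The lead in D was within its noise or below 0 at 662001 (-0.8 min), 791001 (0.7), 887001 (-2.0) and 1005001 (-3.3). At 1005001 the other strains led by 9.2 min in A, 2.0 in B and 5.8 in C. At 887001 the lead was 7.0 in A, 3.2 in B and -0.1 in C. Position 928001 differed, since the lead there was 10.5 for A, 3.8 for B, 2.8 for C and 4.3 for D. D was thus left with a lead beyond its noise at 3 of the 7 positions.

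Because strains differ in how far S phase had gone at a given minute, the same peaks were also read at similar bulk DNA content. The libraries used had a scale factor nearest 1.5, which was 1.435 for A (30 minutes), 1.573 for B (40 minutes), 1.512 for C (35 minutes) and 1.425 for D (40 minutes). The A library is not the one in which the peaks were picked, but both share the G1 denominator of A. The rise of a peak above its higher flanking valley, in ratio divided by the library median, had a median of 0.28 for A, 0.09 for B, 0.09 for C and 0.02 for D over the 7 positions. The noise of such a rise was 0.031 to 0.039. At 607001, read against its right valley alone, the rise was 0.48 for A, 0.16 for B, 0.17 for C and 0.20 for D. At 743001 it was 0.39 for A, 0.26 for B, 0.32 for C and 0.20 for D. At 887001 it was 0.15 for A, 0.07 for B, 0.09 for C and 0.02 for D. At 928001 it was 0.20 in A and -0.04 in D, and at 1005001 0.28 for A, 0.09 for B, 0.19 for C and 0.02 for D. At these positions the rise was lower in the other strains than in A, by amounts that differed from peak to peak. The choice of positions in A favours such a difference. In the 40-minute library of D the ratio was 1.32 at 887001, 1.24 at 928001 and 1.32 at 1005001. A rise that came later in D was not read there.

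**Figure D2:**
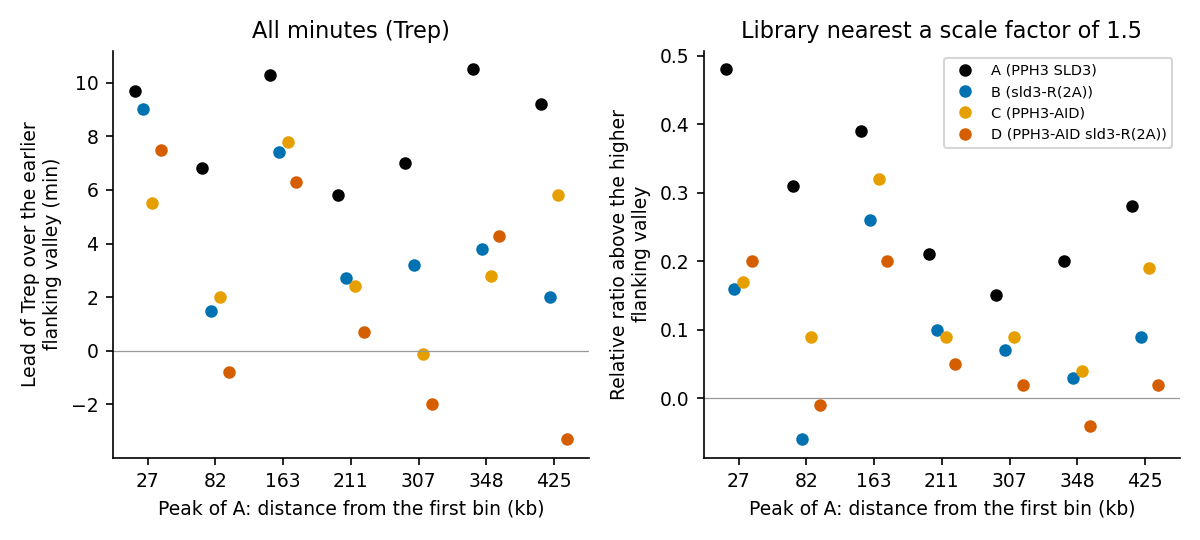
The 7 peaks of A, placed by their distance in kb from the first bin of the arm, read in each strain at the same positions. The left panel gives the lead of Trep over the earlier flanking valley in minutes and the right panel the ratio, divided by the library median, above the higher flanking valley in the library nearest a scale factor of 1.5. In the right panel the points of D lie between -0.04 and 0.05 at all positions other than 27 and 163 kb. The peak at 27 kb is read against its right valley alone.

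On the flanks of its own peaks, Trep of A changed by a median of 0.31 min per kb (0.18 to 0.466 over 13 flanks). The slope on a flank is a difference of replication times, and it was not turned into a fork speed. From 841001 up to the peak at 887001 Trep changed by -0.275 min per kb for A, -0.186 for B, -0.163 for C and -0.006 for D, where a negative slope means earlier towards the peak. From 887001 down to 908001 it became later by 0.343 min per kb in A and 0.135 in B, while the slope was -0.041 in C and -0.078 in D. On the flank from 791001 to 841001 Trep became later in all strains, with slopes of 0.269 for A, 0.247 for B, 0.370 for C and 0.390 for D.

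The delay was not even along the arm. In blocks of 50 kb, the median delay of D against A was between 8.2 and 11.1 min in the 4 blocks from 580001 to 780000. It then rose to 15.1 min from 780001 to 830000, 16.8 from 830001 to 880000 and 21.2 from 880001 to 930000. Further out it was 17.7 min from 930001 to 980000, 16.0 from 980001 to 1030000 and 8.5 in the last 30 kb. D and A were thus closest at both ends of the arm and furthest apart in its middle and outer portion. In the last block the delay of B against A was 6.2 min, that of C 2.5 min, and the extra delay of D beyond the sum of these was -0.1 min.

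Of the 456 bins, 76 (16.7%) had a delay of D against A over 20 minutes, where 4.09% of all bins did. With common scale factors for the strains the arm held 2 such bins and the genome 0.04%, and without the 60-minute libraries 34 and 2.27%. Common factors give all strains nearly the same mean ratio at each minute, so they take out differences in bulk content between strains. The bins lay in 11 runs between 814001 and 1008000, and 1 run, the stretch from 871001 to 905000, had 10 bins or more. The next longest were 826001 to 834000 (8 bins) and 814001 to 821000 (7 bins). In bins above the 90th percentile of the genome, a background of 10.0% by construction, the arm held 22.8% for D minus A and 29.8% for D minus B. It held 24.8% for D minus C, 16.9% for C minus A and 7.0% for B minus A. The B minus A delay was therefore not raised on the arm by this count. D shares its comparisons with A, B and C, so these shares are not independent of each other. Runs of 10 bins or more above that percentile lay at 811001 to 827000, 876001 to 899000 and 949001 to 959000 for C minus A, and at 823001 to 836000, 869001 to 907000 and 947001 to 963000 for D minus A.

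**Figure D3:**
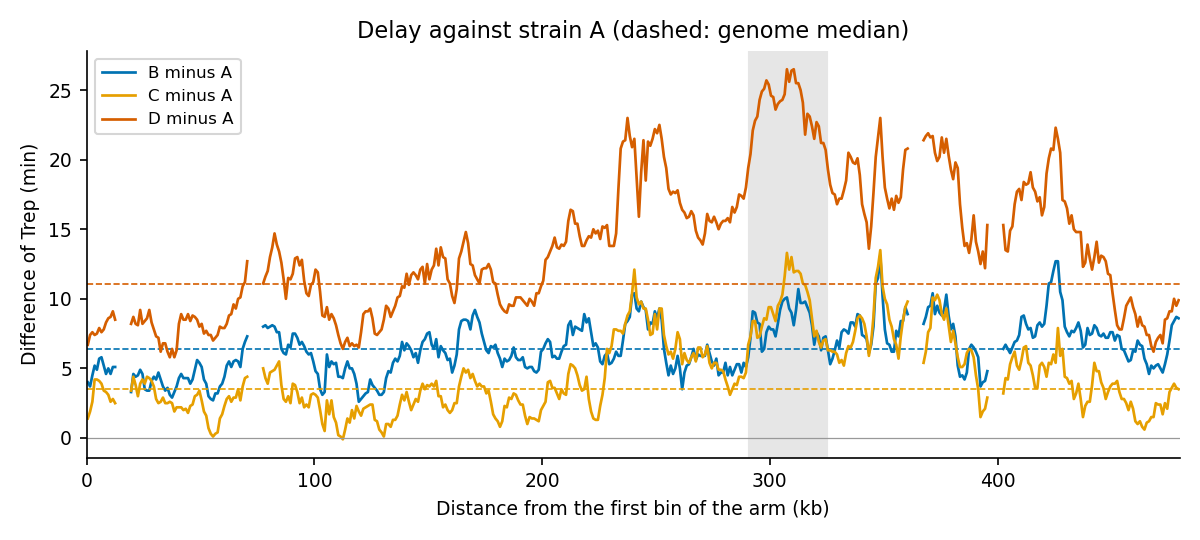
Difference of Trep in minutes from strain A for B, C and D in each 1-kb bin, against distance in kb from the first bin of the arm, with the genome median of each difference as a dashed line. The grey band is the 34-bin stretch, where D minus A ran from 20.4 to 26.5 min.

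The stretch from 871001 to 905000 was the longest run of the D minus A delay. In A it was later than the medians of the arm and of the genome. Its median Trep in A was 38.1 min (SD over bins 2.2, from 34.1 to 42.7). It was at 45.9 in B (SD 1.7, from 43.6 to 50.6) and 47.4 in C (SD 1.0, from 45.8 to 50.0). In D it was at 61.1 min (SD 1.7, from 58.4 to 65.1). The bins were chosen by the delay of D against A, so the separation of D from A follows from that choice. The median delay was 8.19 min for B and 9.14 for C against A, and 24.15 for D. Taken bin by bin, the delay of D exceeded the sum of the single delays by a median of 6.06 min in the stretch and of 1.0 min over the genome. This excess uses the D and A times by which the bins were chosen, so it is not independent of that choice. The B and C delays share A and are not independent of it either. The excess in the stretch rested on the 60-minute libraries and was 1.52 min without them. The bins just outside, at 870001 and 905001, had a delay of 19.4 and 19.3 min, and the bins just inside 20.4 and 20.7 min. These lie close to the cut of 20 minutes, so the edges of the run are not firm. As single minutes were left out, 19 to 34 of its bins had a delay over 20 minutes.

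The ratios themselves show the course. In A the median ratio of the stretch was 1.074 at 15 minutes, 1.316 at 30, 1.591 at 40, 1.876 at 50 and 1.941 at 60. In B it was 1.060, 1.214, 1.323, 1.650 and 1.910 at the same minutes. In C it was 1.092, 1.407, 1.306, 1.659 and 1.942, and the value at 40 minutes was below the one at 30. In D it was 1.088, 1.284, 1.237, 1.292 and 1.421, and it reached 1.842 at 70 minutes. A passed 1.5 by 40 minutes, B and C by 50 and D by 70. In C, 29 of the 456 bins of the arm and 167 of the 11277 of the genome fell by over 0.2 between 30 and 45 minutes. None did in the other strains. A falling ratio cannot be read as an extent of replicated DNA, which limits the C ratios and the Trep of C at such bins.

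**Figure D4:**
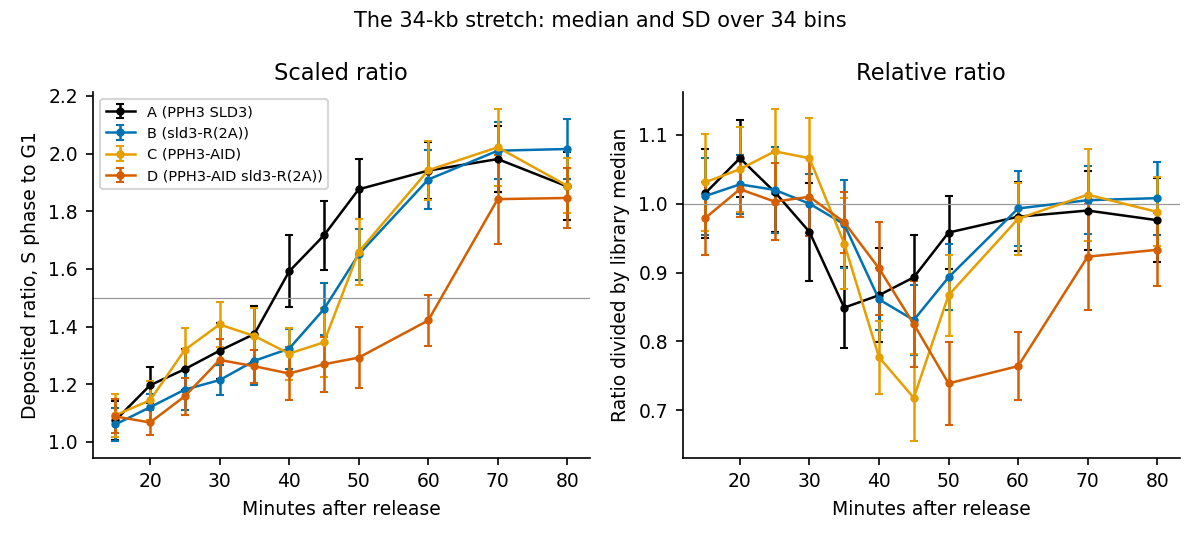
Median and SD over the 34 bins of the stretch from 871001 to 905000 in each library, against minutes after release. The left panel gives the deposited ratio, with a line at 1.5, and the right panel the ratio divided by the library median, with a line at 1. In the right panel the lowest point lies at 35 minutes in A, 45 in B and C and 50 in D.

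The relative ratio, in which the scale factor cancels, reached its lowest value of 0.85 in A at 35 minutes, of 0.83 in B and 0.72 in C at 45, and of 0.75 in D at 50. C and D reached lower values than A and B, and D was still low when C had come back. At similar bulk content the stretch was at 0.95 of the library median for A, 0.86 for B, 0.93 for C and 0.91 for D. The scale factor of the B library, 1.573, was above the 1.435 of A and 1.425 of D. Without a running mean, A was at 0.849 at a factor of 1.634 (35 minutes). D was at 0.825 at a factor of 1.588 (45 minutes). The lower value of B is therefore not shown to be a difference between strains. Relative timing is the area under the relative ratio from 15 to 80 minutes less its genome median, with higher values for earlier bins. By this measure the stretch differed by -0.29 min for B, -0.02 for C and -4.45 for D against A. Setting a common scale factor for the 4 strains at each minute lowered the D minus A delay of the stretch to 16.44 min. The genome median of that difference was then 4.46 min, and the stretch exceeded it by 11.98 min, against 13.06 with the deposited factors.

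Late in S phase the delay showed as bins whose 5-kb running mean was still under 1.5. At 50 minutes A had no arm bin under 1.5, B had 29 (6.4%), C had 33 (7.2%) and D had 183 (40.1%). In the genome these shares were 3.26% in B, 1.85% in C and 25.97% in D. At 60 minutes 79 arm bins of D (17.3%, against 3.34% of the genome) were under 1.5, among them 33 of the 34 bins of the stretch, and no arm bin of the other strains was. Trep is read from the same running mean at 1.5, and the stretch was chosen by Trep. The count in the stretch is therefore not separate from that choice. At 70 minutes the 5-kb running mean had a median of 1.86 in the stretch in D and of 2.00 in the rest of the arm, and no arm bin was under 1.5 in any strain.

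The bin of the largest D minus A delay was 887001, in SMC6, which encodes a subunit of the Smc5-Smc6 complex that acts in chromosome maintenance. Its Trep was 34.1 min for A, 44.2 for B, 47.4 for C and 60.5 for D. At 40 minutes its ratio was 1.64 for A, 1.37 for B, 1.34 for C and 1.32 for D. At 50 minutes it was 1.94 for A, 1.73 for B, 1.62 for C and 1.31 for D, and at 60 minutes 1.96, 1.90, 1.97 and 1.48. This bin is a peak in A, and its delay was 10.1 min for B, 13.3 for C and 26.5 for D. The annotation lists 21 genes that overlap the stretch, 19 of them protein-coding and 19 lying wholly inside. They include PSY3 (Shu complex), FBP1 (fructose-1,6-bisphosphatase), SEC61 (the translocon channel), CTF3 (inner kinetochore), IKI3 (Elongator), SWC7 (SWR1 complex) and STE23 (an a-factor protease). Their D minus A delays lay between 18.8 min at VID22, which crosses the left edge, and 25.9 min at IKI3, with 24.8 at SEC61 and CTF3.

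Other large delays of D against A lay outside the stretch. A delay of 23.0 min was found at 817001 in GAS2 (a glucan-remodelling enzyme of the spore wall), with Trep of 35.2 for A, 43.6 for B, 43.9 for C and 58.2 for D. The same delay was found at 928001 in SEI1, with 30.5 for A, 43.6 for B, 44 for C and 53.5 for D. At SEI1 the delay of the single strains was as large as 13.1 min in B and 13.5 in C, and their sum exceeded the D delay by 3.6 min. The values at SEI1 depend on the smoothing: with a 9-kb mean the delays at 928001 were 8.01 min for B, 9.75 for C and 17.87 for D, and the sum no longer exceeded that of D. At GAS2, a bin also chosen by its D minus A delay, the delay of D exceeded the sum by 5.8 min. The bin 1006001, over CNA1 and TSR2, was delayed by 12.7 min for B, 7.9 for C and 21.5 for D. At 1006001 the delay of D was 13.8 min without a running mean, where that of B was 13.61, and 7.34 min with common scale factors, where that of B was 8.59. At 887001, common scale factors gave 1.91 min for B, 6.86 for C and 14.14 for D. Of the 48 delays at named bins, 37 moved by over 1.5 times or changed sign with common scale factors, and 15 did without a running mean.

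The latest bin of A was 857001, over RPS22B (a ribosomal protein) and MDM30 (an F-box protein), with 48.4 min for A, 52.9 for B, 53.4 for C and 63.5 for D. Its delays were smaller than those at 887001, with 4.5 min for B, 4.9 for C and 15.0 for D. Without the 50-minute libraries the delays at 857001 were 1.67 min for B and 0.60 for C. At 972001 in ATG17, a scaffold protein of autophagy, Trep was 45.3 min for A, 49.0 for B, 46.8 for C and 57.8 for D. Delays of D against A near the smallest of the arm were 5.8 min at 616001 (FAR10 and LIP2), 6.4 min at 692001 and 6.2 min at 1048001 (FMP27). Bin 692001 lies in MCM5, a subunit of the replicative helicase, with 37.7 min for A, 42.0 for B, 37.6 for C and 44.1 for D. With common scale factors the D minus A difference was -1.09 min at 692001 and -0.50 min at 1048001. That setting takes out the bulk difference between strains and lowered the genome median of D minus A from 11.09 to 4.46 min. The sign at bins chosen for a small delay is therefore relative to the bulk there.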

How the data were processed

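Each deposited table lists, per the file headers, reads of an S-phase and of the same strain's G1 library per 1-kb bin as a ratio, and a scale factor as a second ratio column by which the authors multiplied it. Per the submitters' processing notes, Bowtie2 2.2.6, SAMtools, bedtools 2.26.0 and sacCer3 were used, with roles not given. How the factor was set and reads were filtered is not given in the sources used here. Positions count from 1. Genes come from the RefSeq table of the same build.

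Ratios were averaged over 5 kb (at least 3 bins), made monotone in time by isotonic regression, and Trep interpolated at 1.5, for all 456 arm bins and 11260 genome bins. Peaks are maxima within 10 kb on each side of prominence above 3 times the bin noise, in the library of largest ratio spread, and were shared within 5 kb. Named bins are the earliest local minima and latest local maxima of Trep in A (5 each, 20 kb or more apart) and the largest and smallest D minus A delays (3 each, 30 kb or more apart). The other bins named, at peaks, valleys and edges, follow the peak rule or the arm's edges. Trep was checked on simulated data whose ratios rose smoothly with time, so the check does not cover flat or falling courses. Python 3.11.15, numpy 2.4.6 and pandas 2.3.3 were used. The members and the lists were chosen with earlier results of these data known. The alternatives changed smoothing, level, scaling, denominator and minutes. The 24 immunoprecipitation samples were not analysed here.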

Additional observations from a re-analysis of the deposited data

Results flagged for a closer look

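In relative timing, the arm medians of the sld3-R(2A) effect and of the PPH3-AID effect each had opposite signs without and with the other change. The median effect of sld3-R(2A) over the arm was 0.77 min (earlier) with PPH3 and -1.45 min (later) with PPH3-AID. Over the genome these medians were 0.27 and 0.08 min. The median effect of PPH3-AID over the arm was 0.58 min with SLD3 and -1.91 min with sld3-R(2A). Its genome medians were 0.03 and -0.09 min. Single blocks of 50 kb did not all share the sign of the arm median. B minus A ran from -0.48 to 3.22 min, C minus A from -0.65 to 1.41, D minus B from -2.88 to 2.66 and D minus C from -2.55 to 1.29. In the last block, 1030001 to 1060000, D minus B was 2.66 and D minus C 1.29 min. No noise was estimated for relative timing. At bin 692001 in MCM5, PPH3-AID changed Trep by -0.13 min with SLD3, within the bin noise of 1.21 min. With sld3-R(2A) it changed Trep by 2.06 min, where the noise is 1.49 min. With 1 library per strain and minute none of these differences was tested.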

How the results depend on the processing

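No paired analysis was possible because each strain and minute has 1 library. Common scale factors lowered the median delay on the arm and in the stretch to 5.82 and 16.44 min for D minus A, 2.76 and 3.32 for B minus A and 2.5 and 5.4 for C minus A. Arm bins with a D minus A delay over 20 minutes numbered 76 as reported, where 4.09% of genome bins had such a delay. They numbered 40 at a level of 1.4 (1.91% of the genome) and 97 at 1.6 (8.32%). With the 15-minute denominator they numbered 47 (2.79%), without a running mean 70 (6.8%) and with common factors 2 (0.04%). The share of the arm beside that of the genome thus depends on the setting. With the 15-minute denominator the stretch's D minus A delay was 21.56 min. With a crossing at the midway ratio of every bin it was 22.4 min, and B minus A was 9.58 min. Leaving out each minute in turn gave 34 to 82 bins on the arm and 2.27 to 5.32% of the genome. The 34 arose without minute 60. The stretch's D minus A delay ranged from 20.31 (without minute 60) to 25.24 min, its C minus A delay from 7.15 (without minute 45) to 10.16 min. Without minutes 25 and 30, a choice made after seeing the data, the stretch exceeded the genome median by 12.51 min. Peaks at 5 times the noise numbered 3 in A, 2 in B and 1 in D, and 1 in D with a 9-kb mean. The C minus A difference at 692001 turned to 4.07 (no running mean), 0.50 (9-kb mean), 0.32 (level 1.6), 1.04 (15-minute denominator), 1.10 (midway ratio), 0.77 min (even bins) and, as minutes were left out in turn, ranged from -1.06 (without minute 40) to 0.09 min (without minute 35). With common factors B minus A at 616001 was -0.05 min, D minus A at 692001 -1.09 and at 1048001 -0.50, and C minus A at 1048001 -0.12. The causes were not tested. In the other comparisons of medians and counts 73 values moved by less than the bin noise or 1.5 times, and 74 when a minute was left out. Measures at annotated origins (within 5 or 3 kb) were not run. Depth, which is unknown, limits single bins.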
